A study of Mus musculus with 6 samples.

Results

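Gained ATAC-seq peaks near protein-coding genes were examined in freshly isolated muscle stem cells (MuSCs) that lack TAF4A. They were selected on their measured values: a peak annotated to a protein-coding gene had to reach a mean value above 10 over the 6 libraries, and the log2 ratio of the Taf4a sKO mean to the control mean, each with 1 added, had to exceed 1. Of 75412 peaks in the table, 75384 passed the minimum and 23353 of these were annotated to protein-coding genes. The thresholds left 701 gained peaks (3.00% of peaks near protein-coding genes), which belonged to 615 genes (4.33% of the 14219 protein-coding genes with a peak). In comparison, 7.03% of all peaks passed the same thresholds. Since the contrast between the genotypes chose these peaks, their height is described here and not tested.

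ATAC-seq uses the Tn5 transposase to tag open chromatin, and was done on 3 control and 3 Taf4a sKO samples of MuSCs from mice on a C57BL/6 background. Taf4a sKO mice carried Taf4a fl/fl alleles, with loxP sites around exons 11 and 12, together with a tamoxifen-inducible Pax7 Cre allele (Pax7CE+/p), and received tamoxifen at an age of 8 to 20 weeks. Controls were littermates with the same Taf4a fl/fl alleles, either without the Cre allele (Pax7CE+/+) or with it, and some mice of either genotype carried a Pax7-zsGreen reporter. Which control carried Cre, whether controls received tamoxifen, the sex of each sample and the number of mice behind it were not given in the sources used here. Mice of both sexes were used in the study, cells positive for SCA1, CD45 or CD31 were depleted before integrin-a7+ or zsGreen+ cells were sorted, and Pax7 Cre deletes only in cells that express Pax7.

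TAF4A is a subunit of TFIID, the complex that brings RNA polymerase II to promoters. MuSCs are the resident stem cells of skeletal muscle and rest in quiescence until injury activates them. Accessible DNA away from promoters often marks enhancers, where sequence-specific factors such as AP-1 (dimers of Fos and Jun proteins) or interferon-regulatory factors (IRF) bind.

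The DNA of a few gained peaks shows what these regions look like. The following 5 stretches come from gained peaks with large log2 ratios, a mean above 50 and no overlap between genotypes that held an AP-1 motif (TGANTCA, which reads the same on both strands) in their central 300 bp. They are printed from the GRCm38 sequence, which is mm10, with the motif nearest to the peak centre in the middle and each AP-1 motif in capitals.
Foxs1 AP-1 (chr2:152927602-152927688, + strand): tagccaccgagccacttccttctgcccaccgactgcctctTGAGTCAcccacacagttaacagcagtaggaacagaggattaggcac
Pthlh AP-1 (chr6:147260949-147261035, + strand): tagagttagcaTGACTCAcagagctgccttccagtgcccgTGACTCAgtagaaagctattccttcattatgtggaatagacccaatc
Nat8f2 AP-1 (chr6:85863978-85864064, + strand): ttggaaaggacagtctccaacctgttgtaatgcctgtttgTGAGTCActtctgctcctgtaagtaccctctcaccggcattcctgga
P4ha2 AP-1 (chr11:54090580-54090666, + strand): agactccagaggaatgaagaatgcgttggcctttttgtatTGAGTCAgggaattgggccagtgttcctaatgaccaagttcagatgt
Lif AP-1 (chr11:4263211-4263297, + strand): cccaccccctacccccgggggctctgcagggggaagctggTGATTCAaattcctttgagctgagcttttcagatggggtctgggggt
The first motif lies 38 bp from the centre of the peak with the largest ratio of all. The Pthlh stretch holds 2 copies, and the motif of the P4ha2 peak lies 4 bp from its centre. P4ha2 encodes a collagen prolyl hydroxylase.

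A further pair shows an IRF motif (2 copies of GAAA with 2 bases of any kind between them, which reads as TTTC copies on the other strand, in capitals) in gained peaks near Ifi47, an interferon-induced GTPase, and Nat8, an N-acetyltransferase.
Ifi47 IRF (chr11:49081514-49081603, + strand): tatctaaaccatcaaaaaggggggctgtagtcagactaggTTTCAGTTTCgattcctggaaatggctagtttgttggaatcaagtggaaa
Nat8 IRF (chr6:85840300-85840389, + strand): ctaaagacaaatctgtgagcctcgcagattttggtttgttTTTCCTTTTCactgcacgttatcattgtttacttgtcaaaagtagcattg
The last stretch is the RefSeq promoter of Cxcl3 (GRCm38.p6), a neutrophil-attracting chemokine, up to the base before its start site. It lies inside a gained peak, and the capitals mark a match to the NF-kB motif.
Cxcl3 promoter (chr5:90785851-90786100, + strand): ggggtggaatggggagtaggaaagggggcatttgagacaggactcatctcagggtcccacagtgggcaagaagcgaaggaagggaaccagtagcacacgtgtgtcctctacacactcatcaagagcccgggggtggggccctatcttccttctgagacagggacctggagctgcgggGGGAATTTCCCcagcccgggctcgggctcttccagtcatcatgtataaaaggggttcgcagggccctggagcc
A match to a motif is a description of the letters and not evidence that a factor binds there.

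The 701 gained peaks were weak in control MuSCs. The median value of the gained peaks was 76, 80 and 105 in the 3 control libraries and 222, 219 and 230 in the 3 Taf4a sKO libraries. Values are read counts per peak that the authors scaled for sequencing depth, without units. Summed over the gained peaks, the values came to 92606, 94045 and 118153 in control and 249622, 239694 and 249490 in Taf4a sKO MuSCs. This was 0.245%, 0.267% and 0.276% of all peak signal of the control libraries and 0.563%, 0.575% and 0.595% of that of the Taf4a sKO libraries. The median control mean was 88.3 for gained peaks, compared with 600 for the 22024 other peaks near protein-coding genes that were neither gained nor lost. The median Taf4a sKO means of these 2 classes were 227 and 642. Peaks beyond 1000 bp of the start site at genes without a gained peak had a median control mean of 211. Lost peaks were weak in control as well, with a median of 110.5.

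Most gained peaks lay close to the threshold. Their median log2 ratio was 1.24 and ranged from 1.00 to 2.94, 552 (78.7%) stayed at or below 1.5, and 30 exceeded 2. Just inside the threshold were peaks near Gm1604b (465, 365 and 484 in control, 952, 840 and 843 in Taf4a sKO) and Gm9747 (174, 173 and 202 in control, 307, 406 and 391 in Taf4a sKO). Just outside, both at a ratio that did not exceed 1, were peaks near Eif3j2 (146, 127 and 139 in control, 262, 270 and 295 in Taf4a sKO) and Golim4 (21, 26 and 46 in control, 57, 78 and 54 in Taf4a sKO). In 693 of the 701 gained peaks each Taf4a sKO library was above each control library, as it was in 24.3% of all peaks near protein-coding genes. By limma with Benjamini-Hochberg adjustment over all peaks, 692 gained peaks were higher in Taf4a sKO MuSCs, beside 17.8% of peaks near protein-coding genes and 28.0% of all peaks. The choice of the peaks fixed both counts, and nothing is read from them.

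**Figure D1:**
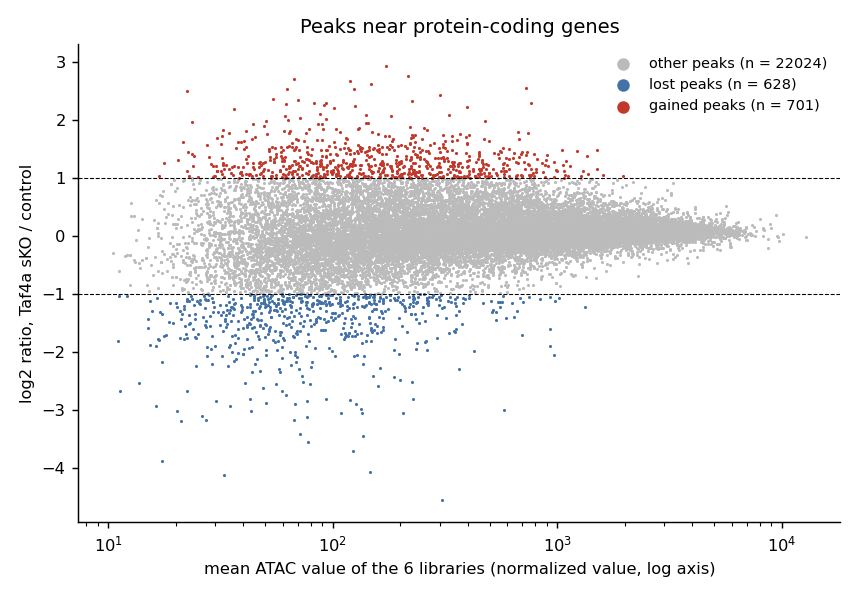
Each point is 1 of 23353 peaks near protein-coding genes. The horizontal axis is the mean normalized value of the 6 libraries (log axis), the vertical axis the log2 ratio of Taf4a sKO to control, and the dashed lines mark 1 and -1. The 701 gained peaks (red) crowd just above the line, and the 628 lost peaks (blue) reach further from 0 than the gained ones.

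The third control library had the highest total signal of the controls and gave the highest control value in 480 of the 701 gained peaks. Without it, 1019 peaks met the thresholds, 677 of them among the 701. A peak 7901 bp upstream of the start site of Tnfrsf25, a Tnf receptor, had 19, 14 and 214 in control and 253, 169 and 405 in Taf4a sKO libraries, and the genotypes overlapped there. The peak near Fbln2, a basement membrane fibulin, had 58, 60 and 201 in control and 307, 299 and 440 in Taf4a sKO libraries. The scaling between libraries also mattered. With TMM factors over peaks 512 of the 701 peaks stayed above the threshold and none joined them, although the log2 ratio of each of the 701 remained above 0 (lowest value 0.87). The share of gained among gained and lost peaks near protein-coding genes was 52.8% with the deposited values and 39.8% with TMM factors, and the share of higher among all limma calls was 66.8% and 53.2%. The median log2 ratio of all peaks was 0.10 with the deposited values and -0.01 with TMM factors.

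Promoter peaks of cell type markers and the peaks of Taf4a were looked at first. All 18 MuSC markers had a promoter peak, and their summed promoter values were 31427, 27203 and 33386 in control and 31784, 30412 and 30404 in Taf4a sKO libraries. The strongest was Hey1, a Notch target, with a mean of 4112. The promoter of Pax7, the gene that defines these cells, had 4533, 3128 and 3729 in control and 3084, 2923 and 3026 in Taf4a sKO (log2 ratio -0.33), so the highest knockout library lay under the lowest control. That of Myf5 had a log2 ratio of -0.24, and the genotypes overlapped there. Other MuSC promoters were higher in Taf4a sKO without overlap, among them Vcam1 (log2 ratio 0.35), Fgfr4 (0.32) and Calcr (0.23). The median log2 ratio over the 18 MuSC promoters was 0.05, with Pax7 the lowest and Vcam1 the highest. A peak over exon 12 of Taf4a (chr2:179922849-179923263), which the knockout allele removes, had values of 65, 78 and 137 in control and 44, 22 and 25 in Taf4a sKO libraries. Thus some signal at the deleted exon remained in the knockout libraries. Of the 2 other peaks inside the gene body, one at exon 7 had 253, 249 and 302 against 140, 145 and 165. The one outside exons had 132, 123 and 159 against 104, 95 and 93, so lower values were not limited to the deleted exon. The peak at the start site overlapped between genotypes (2305, 1998 and 2375 against 2095, 2124 and 2104, log2 ratio -0.08). A peak 3331 bp from the start site was higher (488, 437 and 653 against 831, 695 and 759, log2 ratio 0.53).

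The gained peaks of largest ratio included several near genes of the Nat8 family, and the others lay near genes of various kinds. The rule took the 10 largest log2 ratios among peaks with a mean above 50 and no overlap between genotypes. At the top was a peak 5.6 kb downstream of the start site of Foxs1 (chr2:152927483-152927730), a forkhead transcription factor known from perivascular cells. Its values were 36, 42 and 39 in control and 251, 288 and 378 in Taf4a sKO libraries (log2 ratio 2.94). An intronic peak of Pthlh, which encodes parathyroid hormone-related protein (chr6:147260819-147261139), followed with 39, 45 and 80 in control and 357, 262 and 511 in Taf4a sKO (log2 ratio 2.76). In both, the lowest Taf4a sKO value was more than 3 times the highest control value.

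Of the other 8 peaks, 4 lay near Fgf2, Micall2, Afap1l2 and Kcnv2. A peak 5.2 kb upstream of the start site of Fgf2 (chr3:37342909-37343312), a mitogen for MuSCs, lay in an annotated intron and had 28, 23 and 57 in control and 162, 245 and 231 in Taf4a sKO (log2 ratio 2.53). An intronic peak of Micall2, which links a Rab GTPase to actin (chr5:139734584-139734988), had 68, 97 and 113 against 454, 521 and 543 (log2 ratio 2.44). An intronic peak of Afap1l2, an actin-associated adaptor (chr19:57005157-57005338), had 18, 17 and 18 against 110, 99 and 112 (log2 ratio 2.53). That of Kcnv2, a potassium channel subunit (chr19:27328722-27328949), had 13, 17 and 21 against 94, 101 and 80 (log2 ratio 2.36). These peaks held little of the signal at their genes: their Taf4a sKO level was 14.7% (Fgf2), 22.4% (Micall2), 20.4% (Afap1l2) and 35.2% (Kcnv2) of that of the strongest peak of the same gene.

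The other 4 of the 10 peaks, which ranked directly after Pthlh, belonged to the N-acetyltransferase 8 family, whose enzymes acetylate cysteine conjugates and lysines in the secretory pathway. Of 5 family members with a peak, 4 had a gained peak (Nat8, Nat8f2, Nat8f4 and Nat8f3), and 7 of their 9 peaks were gained. The tallest of these 4, near Nat8f2 (chr6:85864728-85865927), had 221, 180 and 234 in control and 1431, 1162 and 1142 in Taf4a sKO (212 ± 28.2 and 1245 ± 161, SD, n = 3, log2 ratio 2.55). A shorter peak near the same gene had 13, 30 and 51 against 194, 215 and 210 (log2 ratio 2.68), one near Nat8 14, 15 and 22 against 142, 122 and 88 (log2 ratio 2.72), and one near Nat8f4 35, 35 and 52 against 301, 197 and 266 (log2 ratio 2.62). No library of one genotype reached the range of the other in any of them. A gained Nat8f4 peak outside the 10 largest ratios (chr6:85898163-85899541) was slightly taller, with 238, 176 and 358 against 1481, 1117 and 1213. Reads that mapped to several places had been removed. How similar the gene copies of this family are was not measured, so the level at each copy is uncertain.

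**Figure D2:**
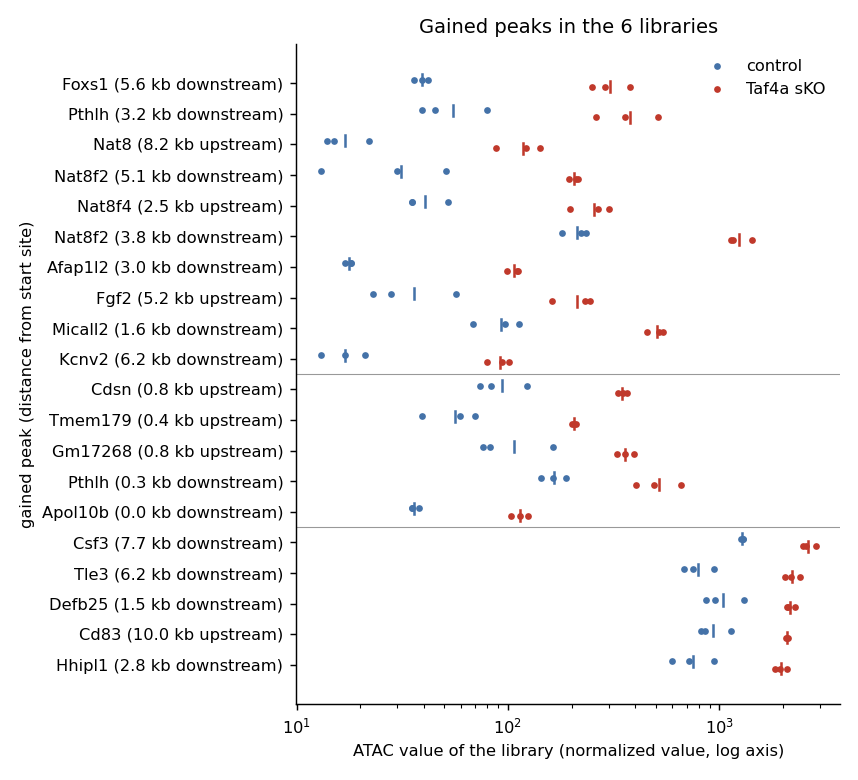
Normalized value in each library (log axis) of 20 named gained peaks, with points for libraries, bars for the mean of 3, and distance from the start site beside each gene. The top block holds the 10 largest ratios among peaks with a mean above 50. The middle block holds the 5 largest ratios among such peaks within 1000 bp of the start site of their gene. The bottom block holds the 5 highest Taf4a sKO means, and in no row do the genotypes overlap.

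With the same limits on mean and overlap, the 5 largest ratios among peaks within 1000 bp of the start site of their gene ran from 1.63 to 1.89. They belonged to Cdsn, which encodes the skin adhesion protein corneodesmosin, Tmem179, Gm17268, Pthlh and Apol10b. The Cdsn peak had 83, 74 and 123 in control and 330, 351 and 364 in Taf4a sKO (log2 ratio 1.89). The Pthlh promoter peak (chr6:147263237-147264446) had 143, 163 and 188 in control and 491, 403 and 658 in Taf4a sKO (log2 ratio 1.65). Pthlh therefore had a gained peak at its promoter as well as within the gene. The Apol10b peak, which spans the start site of an apolipoprotein L gene, had 35, 35 and 38 against 124, 103 and 114 (log2 ratio 1.63).

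The tallest gained peaks were open in control MuSCs as well. Measured by the Taf4a sKO mean, the first was a peak 7.7 kb downstream of the start site of Csf3 (chr11:98708115-98709768), the granulocyte colony-stimulating factor, with 1261, 1297 and 1302 in control and 2860, 2491 and 2568 in Taf4a sKO (1287 ± 22.4 and 2640 ± 195, SD, n = 3). It also lies within 1000 bp of another annotated start site. An intronic peak of Tle3, a Groucho-type co-repressor, had 682, 755 and 941 against 2402, 2046 and 2191 (log2 ratio 1.48). Peaks near Defb25 (a beta-defensin), Cd83 (an immune surface protein) and Hhipl1 had control means of 1042, 938 and 753 and Taf4a sKO means of 2164, 2084 and 1958. With TMM factors the Csf3 and Defb25 peaks fell below the threshold, at log2 ratios of 0.92 and 0.96.

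Of the 615 genes, 540 had 1 gained peak, 75 had at least 2 and 10 had at least 3. Foxs1 had the most with 4, spread over 1.4 to 7.5 kb downstream of its start site. Besides the peak described above they had 40, 30 and 22 against 132, 144 and 190 (log2 ratio 2.30), 69, 52 and 46 against 164, 137 and 177, and 199, 185 and 122 against 555, 540 and 623 (log2 ratio 1.76). The promoter peak of Foxs1 was not gained, with 208, 153 and 155 in control and 286, 295 and 326 in Taf4a sKO (log2 ratio 0.81). Another gained peak in the same stretch of 28467 bp was annotated to Mylk2, the skeletal muscle myosin light chain kinase, with 522, 608 and 814 against 1729, 1772 and 1880 (log2 ratio 1.47).

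Genes with 3 gained peaks included receptors, metabolic regulators and a clock gene. Il1r1, the interleukin-1 receptor, had gained peaks at its promoter (677, 666 and 764 in control, 1497, 1422 and 1458 in Taf4a sKO, log2 ratio 1.05) and at 2 places in its first 8.5 kb (log2 ratios 1.14 and 1.10). Nr1h4, the bile acid receptor FXR, had one at its start site (39, 28 and 38 against 115, 111 and 77) and 2 in introns, of which the taller had 250, 194 and 298 against 797, 563 and 583 (log2 ratio 1.39). Angptl4, an inhibitor of lipoprotein lipase, had 3 within 1.8 kb of its start site, with log2 ratios of 1.07, 1.27 and 1.04. All 3 peaks of each of these genes had separate ranges in the 2 genotypes.

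Hspb8, a small heat-shock protein, had a gained promoter peak (443, 455 and 601 against 1045, 970 and 1031, log2 ratio 1.02) and a flanking peak on each side (log2 ratios 1.95 and 1.48). At Arntl, which encodes the clock factor BMAL1, the gained peaks were minor: the tallest, at 370, 354 and 475 against 1048, 1029 and 1080 (log2 ratio 1.39), reached 20.2% of the level of the strongest Arntl peak. Tm4sf1, a membrane protein of the tetraspanin type, had log2 ratios of 1.80, 1.36 and 2.10, and Plscr2, a phospholipid scramblase, 1.06, 1.16 and 1.41. With TMM factors, 1 or more of these peaks fell below the threshold at Il1r1, Hspb8, Plscr2 and Angptl4, and all stayed above it at Foxs1, Tm4sf1, Arntl and Nr1h4.

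Some gained peaks lay close together. Linking gained peaks no more than 50 kb apart gave 95 groups of 2 or more, which held 221 of the 701 peaks, and 480 had no gained neighbour near a protein-coding gene. Of the 95 groups 60 belonged to 1 gene, and 35 groups with 94 peaks took in 2 or more genes. Linking the 628 lost peaks in the same way gave 60 groups, 21 of them with 2 or more genes. There were 6 groups of 4 or more. The largest was the Nat8 cluster with 6 gained peaks over 71003 bp, whose summed values were 657, 547 and 920 in control and 3982, 3120 and 3293 in Taf4a sKO. Others held the glutathione S-transferases Gstm1, Gstm2 and Gstm3 (490, 557 and 581 against 1551, 1443 and 1572) and the scramblases Plscr1 and Plscr2 (795, 754 and 910 against 2061, 1854 and 1816).

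The chemokine cluster around Pf4, whose product is released by platelets, held 5 gained peaks over 22211 bp at Ppbp, Pf4 and Cxcl3. Together they had 272, 319 and 415 in control and 1120, 1287 and 1132 in Taf4a sKO. The tallest, 6.7 kb downstream of the Pf4 start site, had 93, 118 and 207 against 608, 728 and 621 (log2 ratio 2.22). The peak at the Pf4 promoter itself was low and was not gained (35, 39 and 42 against 85, 71 and 48, log2 ratio 0.80). The Cxcl3 promoter peak, whose sequence stands above, had 64, 55 and 62 against 164, 170 and 190 (log2 ratio 1.52).

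Around Ogn, which encodes the matrix proteoglycan osteoglycin, the picture was mixed. Its 3 gained peaks and 1 of its neighbour Omd summed to 172, 214 and 257 in control and 498, 531 and 478 in Taf4a sKO. The peak at the Ogn start site had 226, 217 and 243 against 203, 133 and 190 (log2 ratio -0.38). Gained peaks thus lay on both sides of a start site whose values were lower in each Taf4a sKO library than in each control.

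**Figure D3:**
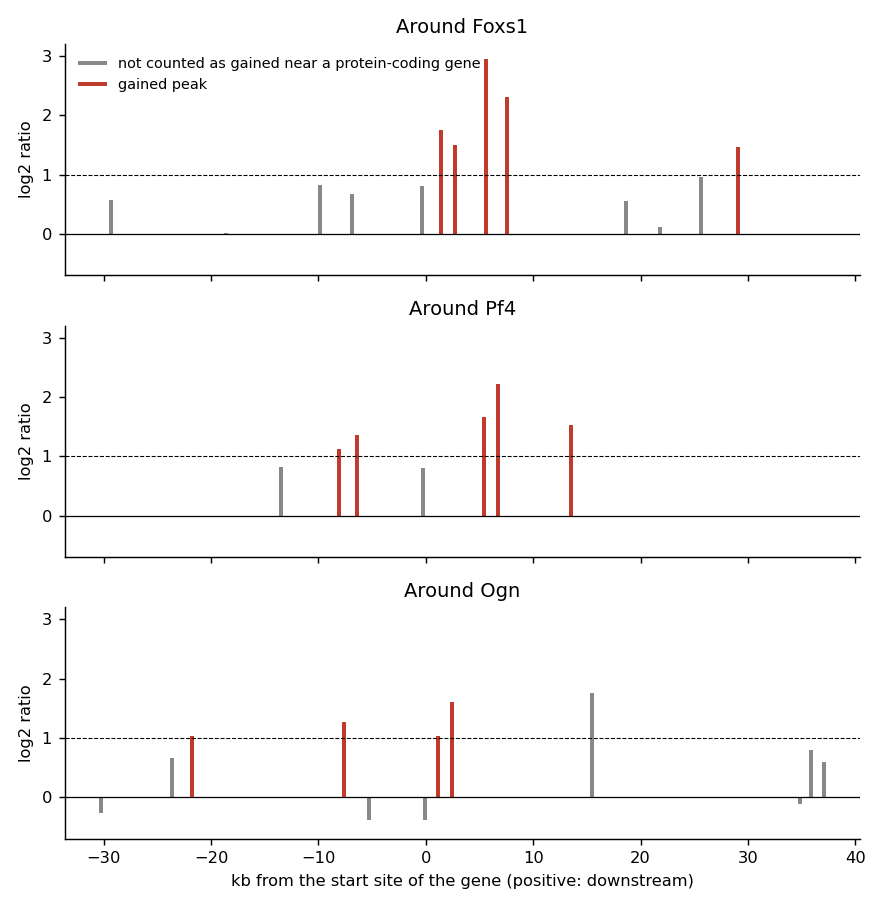
Log2 ratio of Taf4a sKO to control of each peak within 40 kb of the start sites of Foxs1, Pf4 and Ogn, plotted against distance in kb. Red bars are gained peaks near protein-coding genes, grey bars all other peaks, and the dashed line marks the threshold of 1. The grey bar above the line near Ogn is a peak with no annotated gene.

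The families and lists below were counted by genes with a peak. Some were built from symbols, so that a few hold a related protein of another kind (Irf2bp1 among the interferon-related genes, Nr2c2ap among nuclear receptors). The share of all protein-coding genes with a gained peak was 4.33%, and 161 of the 615 genes (26.2%) fell into any of 60 lists, beside 21.7% of all protein-coding genes with a peak. With TMM factors 455 of the 615 genes (74.0%) kept a gained peak, which is 3.2% of all protein-coding genes with a peak, and the counts under TMM below are to be read against that share. A gene with more peaks has more chances of a gained one, which these shares of genes do not take into account. No list was tested.

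Ligands and receptors of the immune system carried gained peaks at several times that share. Of 75 interleukins, chemokines and their receptors 11 had one (14.7%), and the 6 of largest ratio were Cxcl3, Il17b, Cxcl2, Il27, Il33 and Il1r1. With TMM factors 8 of the 11 remained. The Cxcl2 promoter peak had 239, 251 and 265 in control and 550, 652 and 639 in Taf4a sKO (log2 ratio 1.28), and a peak 3.2 kb upstream had 449, 445 and 493 against 1225, 1159 and 1112 (log2 ratio 1.33). The Il33 promoter peak, at an alarmin gene, was low in both genotypes (19, 14 and 17 against 32, 51 and 39). Lost peaks lay at 5 of the same 75 genes (Ccl11, Cxcl13, Cxcl17, Il12b and Il2rb), which is also above the 4.04% of all protein-coding genes with one.

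The Tnf superfamily had 5 of 31 genes with a gained peak (16.1%), and all 5 remained with TMM factors. Among them was Tnf with 25, 36 and 42 against 75, 82 and 103 in an intronic peak (log2 ratio 1.31). Lost peaks lay at 2 of the 31 genes (Tnfsf10 and Tnfsfm13), again above the 4.04% of all protein-coding genes. Toll-like and interferon-related genes had 7 of 54 (13.0%), of which 4 remained with TMM factors, and Gbp10 and Tlr4 had a lost peak. The promoter peak of Ifi47 had 76, 72 and 54 against 192, 184 and 188 (log2 ratio 1.47), and its intronic peak, with the IRF motif printed above, 31, 45 and 30 against 171, 160 and 173 (log2 ratio 2.22). The Ifit3 promoter peak had 138, 174 and 142 against 334, 321 and 289 (log2 ratio 1.05). Over all 99 peaks of this list the median log2 ratio was 0.28, and 46.5% were higher by limma, beside 17.8% of peaks near protein-coding genes. Without the third control library, the same 11, 5 and 7 genes of these lists kept a gained peak.

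Cytokine genes of one further group were added after the values had been seen. Of 9 colony-stimulating factor and Lif genes 4 had a gained peak: Csf1, Csf2, Csf3 and Lif. The intronic Lif peak with 2 AP-1 motifs had 113, 123 and 139 in control and 495, 574 and 539 in Taf4a sKO (log2 ratio 2.09), and a taller one 503, 443 and 553 against 1078, 1102 and 1173 (log2 ratio 1.16). Of 14 Socs and Stat genes, also added in this way, 3 had one (Stat3, Socs3 and Socs2). The Stat3 peak (74, 61 and 99 against 178, 221 and 223) and the Socs3 peak (126, 98 and 97 against 298, 232 and 308) reached only 4.78% and 4.37% of the Taf4a sKO level of the strongest peak of their gene.

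Lists of extracellular matrix and adhesion genes were small, and differences between their counts were not tested. Of 11 laminins 3 had a gained peak (27.3%: Lamb1, Lama2 and Lama5), and of 20 integrins 3 (15.0%: Itga3, Itga4 and Itgb6), whereas of 40 collagens only Col5a3 had one (2.50%) and of 48 cadherins and protocadherins 2 (4.17%). Over all their peaks the first 3 lists were closer, with 38.1%, 36.2% and 31.5% of peaks higher by limma and median log2 ratios of 0.16, 0.21 and 0.16. Of all peaks near protein-coding genes 17.8% were higher by limma. The Lama2 peak, at the chain of muscle laminin, had 140, 153 and 198 in control and 401, 400 and 341 in Taf4a sKO (log2 ratio 1.21). The Itga4 promoter peak had 113, 153 and 152 against 355, 334 and 365 (log2 ratio 1.33). Serpins and other protease inhibitors had 5 of 24 (20.8%), including Serpina1e, an alpha-1-antitrypsin gene, with 47, 36 and 46 against 215, 195 and 214 (log2 ratio 2.25). With TMM factors 3 laminins, 2 integrins and 4 of these inhibitors remained.

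Among lists added after the values had been seen, 7 of 11 small leucine-rich proteoglycans had a gained peak (Prelp, Ogn, Dcn, Bgn, Lum, Optc and Omd), 7 of 25 genes of nidogens, fibulins and elastic fibres, 3 of 9 annexins and 5 of 7 apolipoprotein L genes. Without the third control library 3 of these 5 apolipoprotein L genes kept one, and in the elastic fibre list Emilin1 and Mfap2 had a lost peak. The Lum promoter peak had 60, 56 and 54 against 160, 126 and 143 (log2 ratio 1.32). The promoter peak of Plaur, the urokinase receptor, had 117, 116 and 187 against 397, 378 and 394 (log2 ratio 1.47). Because these lists were picked for their gained peaks, their counts are a description only.

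Some of these genes also mark fibro-adipogenic progenitors, a neighbouring cell type of muscle, and cells of blood vessels. Cells positive for SCA1, CD31 or CD45 had been depleted before the sort, and the study reports that the sorted cells were not fully pure. Of 9 fibro-adipogenic markers 3 had a gained peak (Dcn, Lum and Pi16) and Gsn a lost one. The 6 with a promoter peak summed to 3314, 2957 and 3603 in control and 4042, 3809 and 3779 in Taf4a sKO, with Col1a1 the strongest. The promoters in this sum differed in direction. The Col1a1 promoter had 1243, 1021 and 1339 in control and 1940, 1816 and 1797 in Taf4a sKO (log2 ratio 0.62), and the log2 ratios at Lum, Dcn and Gsn were 1.32, 0.84 and 0.06. The Dpt promoter had 481, 454 and 554 against 372, 348 and 350 (log2 ratio -0.48), and Cd34 had a log2 ratio of -0.26. Over all 27 peaks of the list 44.4% were higher by limma, beside 17.8% of all peaks near protein-coding genes, with a median log2 ratio of 0.33. The defining genes Pdgfra, Ly6a and Pi16 had no promoter peak. Of 12 endothelial markers 4 had a promoter peak (1818, 1736 and 2271 against 2424, 2495 and 2415, Tek the strongest). Egfl7 and Flt1 had a gained peak, Robo4 and Tek a lost one, and Pecam1 and Cdh5 had no promoter peak. Over their 14 peaks 42.9% were higher by limma, with a median log2 ratio of 0.13. Of 12 haematopoietic markers 2 had a promoter peak, with sums that were lower in Taf4a sKO (218, 236 and 339 against 160, 152 and 150), and Ptprc had no peak. Of 8 smooth muscle and pericyte markers 7 had a promoter peak (5043, 4850 and 5366 against 5738, 5332 and 5501, Acta2 the strongest) and Rgs5 had no peak. None of their 15 peaks was gained, although 46.7% were higher by limma, with a median log2 ratio of 0.27. These marker lists hold few peaks, so that single peaks move the shares. In bulk samples, a change in the share of a cell type and a change in accessibility per cell cannot be told apart, and the part of other cell types in the gained peaks was not tested.

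Genes of MuSC identity and quiescence had a gained peak in 5 of 37 cases (13.5%): Cdh15, Notch1, Rbpj, Chrdl2 and Col5a3. Tenm4 had a lost peak. With TMM factors 3 of the 5 remained. An intronic peak of Cdh15, the M-cadherin that anchors MuSCs to myofibres, had 253, 226 and 244 in control and 776, 745 and 737 in Taf4a sKO (241 ± 13.7 and 753 ± 20.6, SD, n = 3, log2 ratio 1.64). A promoter-near peak of Notch1, the receptor that maintains quiescence, had 308, 321 and 393 against 735, 782 and 947 (log2 ratio 1.27), and a distal peak of Rbpj, the DNA-binding partner of Notch, 117, 142 and 176 against 311, 295 and 330 (log2 ratio 1.10). These genes had many peaks: of 138 in this list 6 were gained, beside 3.00% of all peaks near protein-coding genes. Over the 138 the median log2 ratio was 0.21, and 37.7% were higher by limma, beside 17.8% of peaks near protein-coding genes.

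Genes of MuSC activation and commitment had one in 3 of 35 cases (8.57%), namely Fgf2, the fusion gene Mymk and Ccnd1, and Egr1 had a lost peak. Counted by peaks, 3 of 96 in this list were gained, close to the 3.00% of all peaks near protein-coding genes. The Mymk promoter peak was low, with 19, 22 and 21 against 64, 53 and 63 (log2 ratio 1.49). The Ccnd1 peak, at a G1 cyclin, had 114, 147 and 145 against 355, 267 and 316 (log2 ratio 1.20). Of 6 PI3K-Akt pathway genes, which the study had picked by their transcripts in the same knockout, 4 had a gained peak (Lamb1, Angpt1, Flt1 and Gng2). A list picked in this way is not independent evidence of a direction.

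Several other families had few gained peaks or none. No gained peak was annotated to any of the 74 listed chromatin modifiers or the 46 listed phosphoinositide kinases and phosphatases. The same held for 38 Wnt ligands and Frizzled receptors, 32 listed genes of cell cycle and replication and 29 histone genes. At the 4.33% share of all genes, lists of this size would hold only few such genes, and the difference was not tested. The lists are not complete. Smarce1, Cbx7 and Zmynd8, chromatin genes outside them, had a gained peak, as did the cyclin gene Ccnd1, counted under MuSC activation. Hdac4, Hdac9, Lmnb2 and Smyd4 of the chromatin list had a lost peak. Genes with Zfp, Zscan, Zbtb or Klf symbols had 3 of 276 (1.09%), homeobox factors 2 of 110 (1.82%) and ribosomal proteins 1 of 67 (1.49%). Znf507, Sp7 and Snai1, zinc finger genes outside the first of these lists, each had a gained peak. Solute carriers, at 11 of 270 (4.07%), were close to the share of all genes. Of 42 olfactory and vomeronasal receptors 6 had a gained peak (14.3%), 3 of which remained with TMM factors. Further lists also lay above the share of all genes. They were ephrins and Eph receptors (3 of 20, 15.0%), nuclear receptors (4 of 38, 10.5%) and calcium channels (5 of 48, 10.4%). Phospholipases and diacylglycerol kinases had 4 of 40. With TMM factors 2, 2, 4 and 4 genes of these lists remained, and lost peaks lay at 1, 2, 6 and 0 of their genes.

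**Figure D4:**
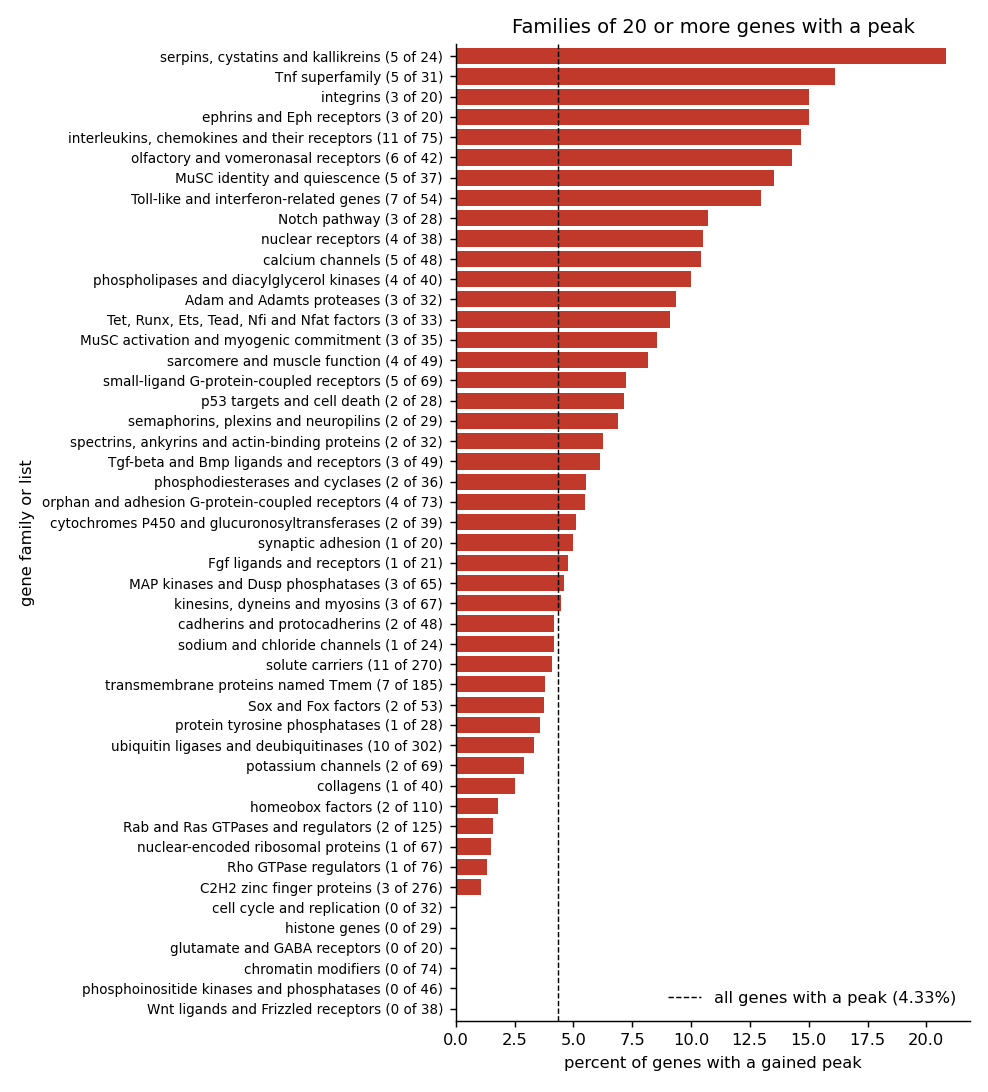
Percent of genes with a gained peak in each family or list of 20 or more genes with a peak, with counts beside the names. Lists added after the values had been seen are not drawn. The dashed line is the 4.33% of all protein-coding genes, and the bars run from 20.8% for serpins, cystatins and kallikreins to 0 for 6 families at the bottom.

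Gained and lost peaks rarely met at the same gene. Lost peaks, with a log2 ratio below -1, numbered 628 and belonged to 4.04% of protein-coding genes. Only 5 genes had both (4930583I09Rik, 4932438H23Rik, Ak1, Gm11214 and Mrgprd).

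The remaining peaks of genes with a gained peak leaned the same way. Of the 615 genes, 494 had other peaks, 984 in all, with a median log2 ratio of 0.23. Of these 381 (38.7%) were higher in Taf4a sKO MuSCs and 38 (3.86%) lower by limma. Among 21668 peaks of genes with no gained peak, 14.2% were higher and 10.3% lower, and the median log2 ratio was 0.05. Within 1000 bp of the start site the share higher was 30.0% for genes with a gained peak and 8.66% for those without, and beyond it 43.8% and 20.6%. These peaks come from the same contrast and libraries as the gained ones, so the shares are given without a test. With 1 library left out at a time, the share of 38.7% ran from 28.4% (without the first Taf4a sKO library) to 49.6% (without the third control library).

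Gained peaks were mostly minor peaks of their genes. In genes with several peaks, the Taf4a sKO level of a gained peak was at the median 25.0% of that of the strongest peak of the gene, and 86 of 551 gained peaks were the strongest. In 121 genes all peaks were gained.

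By position, 149 gained peaks (21.3%) lay within 1000 bp of any annotated start site, 285 (40.7%) in introns, 230 (32.8%) between genes and 37 (5.28%) in exons. Other peaks near protein-coding genes were at promoters in 64.2% and in introns in 16.7%. Lost peaks resembled gained ones in this respect, with 25.8% at promoters and 36.5% in introns. The median distance to the start site of the annotated gene was 5293 bp for gained, 5166 bp for lost and 648 bp for other peaks, in a table that names a gene only within about 10000 bp. Gained and lost peaks were both narrower than other peaks (median 424, 374 and 901 bp) and poorer in CpG, with median observed to expected ratios of 0.21, 0.23 and 0.58. By chromosome, the share of peaks near protein-coding genes that were gained ran from 0.938% on X to 4.62% on chromosome 6, where the Nat8 cluster lies.

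Among 15 motifs searched on both strands, AP-1 had the largest difference in share between gained and other distal peaks. It stood in the central 300 bp of 248 gained peaks (35.4%) and of 12.7% of all peaks near protein-coding genes. Beyond 1000 bp of the start site of the annotated gene, here called distal, the shares were 36.6% of 604 gained, 17.5% of 519 lost and 20.6% of 10181 other peaks. Distal peaks could still lie at another start site, so position was matched only in part. Within 1000 bp of the annotated start site lay 13.8% of gained and 53.8% of other peaks. For any annotated start site these shares were 21.3% and 64.2%. Other distal peaks with a mean between the 5th and 95th percentile of the gained ones (33.5 to 764) had it in 20.9%. The share did not rise with the size of the ratio: it was 35.3% for gained peaks at or below 1.5 and 35.6% for those above. It was 35.9% with TMM factors and 38.3% without the third control library.

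The E-box CAGCTG, the form bound by MyoD-type factors, went the other way between gained and lost peaks. It stood in 24.2% of gained, 44.9% of lost and 29.2% of other distal peaks. The IRF motif was in 6.13%, 1.35% and 3.65%, the STAT motif TTCNNNGAA in 12.4%, 7.71% and 8.42%, the TEAD motif GGAATG in 24.5%, 16.4% and 18.8% and the ETS motif GGAAGT in 24.0%, 15.4% and 18.7%. The C/EBP motif TTGCNNAA was in 15.7%, 13.1% and 11.4% and the RUNX motif TGTGGT in 21.7%, 25.8% and 19.7%. The Sp motif GGGCGG was in 9.93%, 9.25% and 21.5%. For NF-kB, whose match is printed above in the Cxcl3 promoter, the shares were 8.44%, 5.78% and 9.33%, and for the NF-Y motif CCAAT 35.1%, 30.1% and 31.0%. In a window of 500 bp the NF-kB shares were 15.2%, 9.25% and 14.8%, so the order of gained and other peaks turned. The IRF shares in that window were 7.78%, 4.82% and 6.01%. Of the remaining 4, the CRE motif TGACGTCA was in 0.993%, 0.578% and 0.992%, MEF2 in 1.99%, 4.24% and 2.45%, and NFI and GRE in fewer than 1% of each class. Motif shares over peaks are descriptions with no test, and the window of 300 bp reached past the edges of the 208 gained peaks (29.7%) that were narrower.

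**Figure D5:**
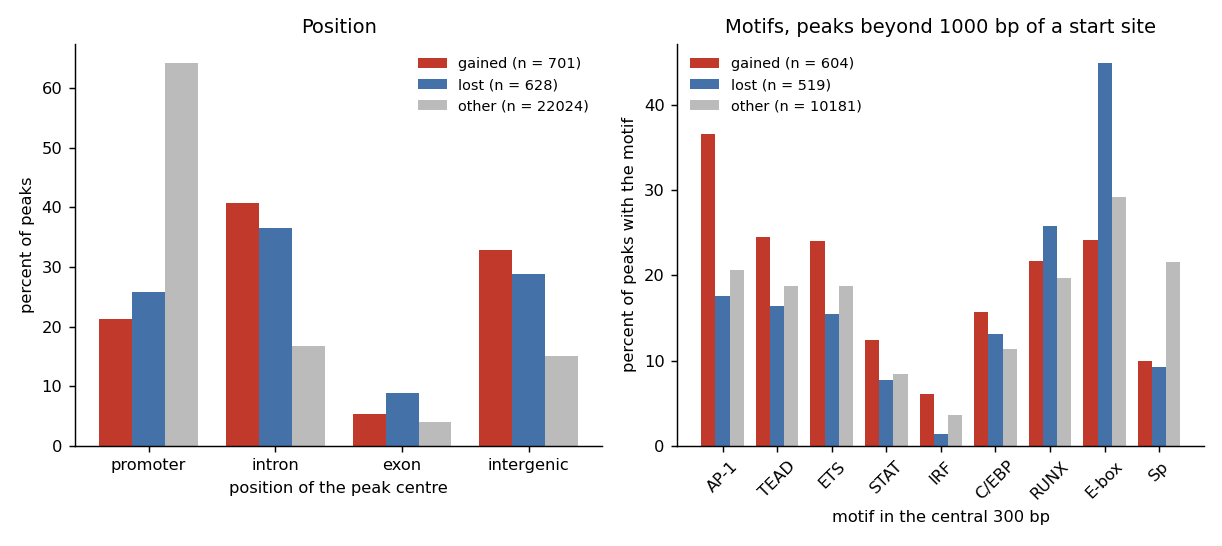
Left, percent of gained, lost and other peaks near protein-coding genes by position of the peak centre. Right, percent of peaks that hold a motif in the central 300 bp, for 9 of the 15 motifs. These peaks lie beyond 1000 bp of the start site of their annotated gene, but can lie at another start site. Gained peaks have the tallest bar for AP-1 (36.6%), and lost peaks for the E-box (44.9%).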

How the data were processed

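ATAC-seq of 3 control and 3 Taf4a sKO samples was analysed, grouped by the genotype in the labels. The authors trimmed reads with Trimmomatic 0.39, aligned them with STAR 2.7.11b to mm10, removed duplicates with Picard 3.1.1 as well as multi-mapping reads, called peaks per sample and unified them. A shift of reads for the Tn5 cut is not given in the sources used here. The deposited values are scores: featureCounts reads per peak that the authors multiplied by a depth factor and rounded, so that they are not raw counts. Summed over peaks they came to 37722015, 35226223 and 42803315 (control) and 44311913, 41661725 and 41948821 (Taf4a sKO). No sample column was left unused.

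Ratios used a pseudocount of 1. limma 3.58.1 (R 4.3.3) with trend and robust moderation on log2(value + 1) tested 75384 peaks at an adjusted p of 0.05. Positions came from GENCODE vM21 (99.9% of gene IDs matched) and GRCm38, and peak starts may be off by 1 base. The named genes were the 10 largest ratios and the 5 largest near start sites (both among non-overlapping peaks with a mean above 50), 8 genes with most gained peaks, 5 highest levels, up to 6 genes a list and 2 peaks on each side of the threshold. Further genes named in the text (P4ha2, Fbln2, Mylk2, Stat3, Plaur, others of added lists, genes outside the lists and genes with a lost peak) were chosen after their values were seen. The gained peaks, lists and motifs were all chosen with earlier results of these data known. Of 610 gene symbols with a gained peak, 441 matched the RefSeq promoters. The tests measure the spread of 3 samples per genotype, which limits precision. Alternatives covered thresholds, pseudocount, scaling, promoter distance, motif window and each library left out.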

Additional observations from a re-analysis of the deposited data

How the results depend on the processing

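The count of 701 gained peaks at 615 genes depended on the thresholds: it was 149 peaks at 136 genes above a log2 ratio of 1.5 and 2267 peaks at 1847 genes above 1.5-fold. It stayed within 1.5 times under a minimum mean of 50 (617), a pseudocount of 10 (551), TMM (512) and median-of-ratios factors (510), and ran from 627 to 1019 with 1 library left out. Peaks higher by limma numbered 21102 and stayed within 1.5 times throughout (16024 to 28502), whereas the 10476 lower peaks became 16803 with TMM and 16943 with median-of-ratios factors. The share of other peaks of the same genes that were higher ran from 28.43% to 49.64% with 1 library left out, and was 37.7% to 41.1% under the other alternatives. A promoter distance of 500 bp gave 14.84% of gained peaks at promoters, and 3000 bp gave 45.51%, with 28.53% in introns and 23.54% in intergenic regions. A window of 500 bp raised the AP-1 share from 35.4% to 42.94%, and it was 35.9% and 38.3% in 2 alternatives added after seeing the data (TMM, and without the third control library).

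With the replicate number as a replicate block, limma called 21944 peaks higher and 11004 lower, and 39.23% of the other peaks of the same genes. Same-numbered libraries did not deviate together (correlations of 0.11, -0.12 and -0.03 across peaks), so the numbers were not treated as pairs. Single outlying samples were not tested for in groups of 3, and the depth behind each value is known only after the authors' scaling.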
